A study of Rattus norvegicus with 10 samples.

Results

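Chemokines, interleukins and their receptors were described in testis RNA of adult rats whose mothers had received BDE-47, a flame retardant of the polybrominated diphenyl ether class. The genes were taken by symbol, as every chemokine (Ccl, Cxcl, Cx3c and Xcl names), chemokine receptor, atypical chemokine receptor and interleukin or interleukin receptor name in the deposited table. This gave 126 of 17274 gene symbols. They comprised 20 CC chemokine ligands, 14 CXC, CX3C and XC chemokine ligands, 17 chemokine receptors, 2 atypical chemokine receptors, 33 interleukins, 34 interleukin receptor chains and 6 antagonists, decoys and binding proteins. The BDE-47 group was born to Wistar dams given 0.2 mg/kg body weight of BDE-47 in tocopherol-stripped corn oil each day from pregnancy day 8 to postpartum day 21, and the vehicle group to dams given the oil alone. The labels put 5 testis libraries at postnatal day 120 in each group, assign 7 dams to each treatment and name no litter, so littermates may be among the libraries.

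Chemokines are small secreted proteins that guide white blood cells through G protein-coupled receptors, and their names follow the spacing of their conserved cysteines. Atypical receptors bind chemokines without the usual G protein signal and remove them. Many interleukins act through receptors assembled from several chains, some of them shared. Many signal through JAK kinases and STAT factors, and the interleukin-1 family mostly through MyD88 and NF-kB. The testis shelters germ cells from immune attack, and its resident macrophages lie beside the Leydig cells between the seminiferous tubules.

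The table gives 1 value per group and gene, in FPKM, a fragment count adjusted for transcript length and sequencing depth. It holds no value per library, so the spread between animals and the depth are unknown, no difference was tested, and every comparison is one of group values. A difference is the log2(FPKM + 1) of the BDE-47 group minus that of the vehicle group, which understates low genes. A gene is called higher or lower at a difference of at least 2-fold on that scale, and a gene was compared where its 2 group values averaged 1 FPKM or more. Which group is higher is read from the column headings alone. Titles of BDE-47 libraries carry a C code and titles of vehicle libraries an X code, and the columns are not tied to single libraries.

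Chemokine and interleukin genes had mostly higher values in the BDE-47 group. Of the 126 genes, 72 reached 1 FPKM with BDE-47 and 43 with vehicle, and 21 reached 10 FPKM with BDE-47 and 8 with vehicle. Shares of all genes past these levels were not computed. The table as a whole leaned the same way, with 8076 of 11948 genes compared larger with BDE-47. The 5 highest with BDE-47 were Ccl11 (72.5 FPKM), Ccl26 (71.5 FPKM), Cxcl12 (63.6 FPKM), Il3ra (58.5 FPKM) and Ackr3 (44.0 FPKM). With vehicle they were Ccl26 (155 FPKM), Il3ra (97.0 FPKM), Ccl27 (58.1 FPKM), Ccl28 (27.9 FPKM) and Il11 (15.5 FPKM).

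Of the 67 genes compared, 40 were higher with BDE-47 by at least 2-fold, 2 were lower by as much and 25 lay between. Those 40 were 59.7% of the genes compared, against 30.1% of all 11948 genes compared, and the 2 lower ones were 2.99%, against 3.72%. The median difference was 1.40, with quartiles of -0.01 and 1.99, and that of all genes compared was 0.45. The balance depended on scaling. Among genes past 2-fold, 95.2% of the chemokine and interleukin genes and 89.0% of all genes were higher with BDE-47. Median-of-ratios scaling over all loci removed a shift of 0.79 log2 units and left 80.0% and 39.2%, with 28 chemokine and interleukin genes higher (41.8%, against 13.5% of all genes) and 7 lower (10.4%, against 21% of all genes). Scaled on the genes compared alone, a shift of 0.52, the shares were 84.6% and 56.3%, with 33 higher (49.3%, against 18.3%) and 6 lower (8.96%, against 14.2%). Quantile normalization gave 33 higher (49.3%, against 19.6%) and 5 lower (7.46%, against 9.57%), and equal sums without the most abundant loci 36 higher (53.7%, against 25.3%) and 2 lower (2.99%, against 7.31%). Scaled on the genes compared, the median difference was 0.96, and that of all genes 0.00.

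**Figure D1:**
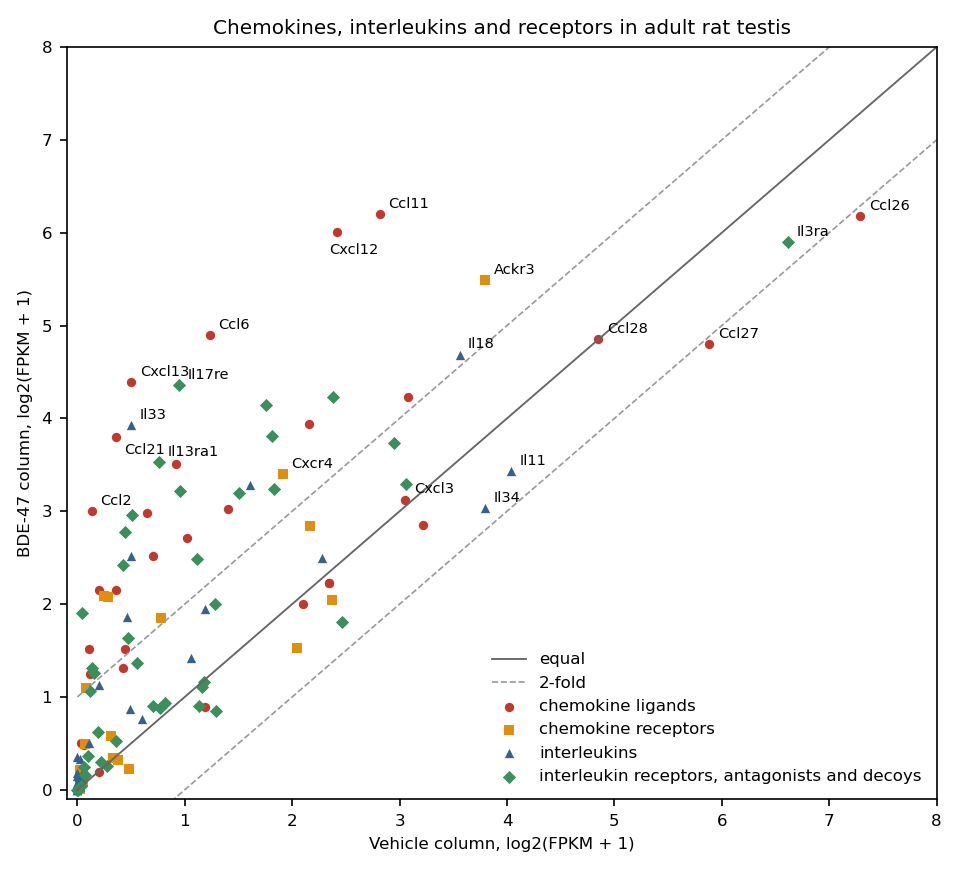
Each point is 1 of the 126 genes, with log2(FPKM + 1) of the BDE-47 group on the vertical axis and that of the vehicle group on the horizontal axis. The solid line marks equal values and the dashed lines 2-fold, and of the 67 genes that averaged 1 FPKM or more, 40 lie on or above the upper dashed line and 2, Ccl26 and Ccl27, below the lower one.

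The promoters of 4 genes are shown because NF-kB, the transcription factor of inflammatory signalling, is known to act on many chemokine genes and their promoters hold its motif. Promoter windows, from 250 bases before to 50 after the gene start, were found by symbol in a RefSeq table of the assembly GRCr8 for 98 of the 126 genes. Cxcl13, Il13ra1 and Il10rb had the largest differences among genes past 2-fold whose window holds the motif, read as GGGA, any 4 bases and CC, or its reverse complement, and Cxcl10 was added after its matches were seen. Capitals mark the NF-kB matches and, in Cxcl10, also a match to GAAA, any 2 bases and GAAA, the core of the interferon-stimulated response element. The windows lie at chr14:13917871-13918170 on the minus strand (Cxcl13), chrX:120214355-120214654 on the plus strand (Il13ra1), chr11:44132386-44132685 on the plus strand (Il10rb) and chr14:15988816-15989115 on the plus strand (Cxcl10), and each is written from 5′ to 3′ in the direction of the gene.
Cxcl13: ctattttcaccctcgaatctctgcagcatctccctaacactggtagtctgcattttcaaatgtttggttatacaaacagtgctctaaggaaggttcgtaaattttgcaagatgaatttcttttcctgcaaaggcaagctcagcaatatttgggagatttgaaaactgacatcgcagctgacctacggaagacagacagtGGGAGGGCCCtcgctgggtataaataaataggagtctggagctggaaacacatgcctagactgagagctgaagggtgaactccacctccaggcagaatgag
Il13ra1: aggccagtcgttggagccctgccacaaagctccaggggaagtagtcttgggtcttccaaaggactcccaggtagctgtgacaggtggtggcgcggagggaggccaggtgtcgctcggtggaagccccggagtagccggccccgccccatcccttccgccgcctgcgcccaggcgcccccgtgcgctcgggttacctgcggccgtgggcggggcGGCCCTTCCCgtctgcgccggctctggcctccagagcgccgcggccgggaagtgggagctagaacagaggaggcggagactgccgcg
Il10rb: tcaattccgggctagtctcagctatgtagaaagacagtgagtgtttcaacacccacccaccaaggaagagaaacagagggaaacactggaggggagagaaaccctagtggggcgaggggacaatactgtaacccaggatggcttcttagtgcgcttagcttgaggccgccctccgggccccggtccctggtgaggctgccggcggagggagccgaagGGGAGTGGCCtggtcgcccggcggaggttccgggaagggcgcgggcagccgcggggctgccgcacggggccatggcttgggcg
Cxcl10: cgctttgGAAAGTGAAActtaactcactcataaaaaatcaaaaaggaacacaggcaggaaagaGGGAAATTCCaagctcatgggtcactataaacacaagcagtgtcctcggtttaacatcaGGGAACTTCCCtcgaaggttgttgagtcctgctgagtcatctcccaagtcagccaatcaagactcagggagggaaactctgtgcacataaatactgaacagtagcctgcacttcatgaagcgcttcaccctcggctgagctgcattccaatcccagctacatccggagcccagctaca

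In the Cxcl10 window the interferon core starts 243 bases before the gene start and the first NF-kB match at 187 bases. The last capital run holds a pair of overlapping matches, GGGAACTTCC on the written strand at 128 bases and GGAACTTCCC, its reverse form, at 127 bases. An AP-1 match (TGANTCA, in lower case) starts at 96 bases. The single matches of the others start at 51 bases in Cxcl13 (GGGAGGGCCC), 37 bases in Il13ra1 (GGCCCTTCCC) and 33 bases in Il10rb (GGGAGTGGCC), and the STAT motif TTCNNNGAA was matched once in Il10rb, at 6 bases. Over both strands, the NF-kB motif was in 9 of 32 windows of genes at least 2-fold higher (28.1%), in 6 of 20 of the other genes compared (30.0%) and in 19.3% of all 33469 windows. The AP-1 motif was in 7 (21.9%), 3 (15.0%) and 7.33%. The interferon core was in 4 of the higher genes (12.5%), namely Cxcl10, Il18bp, Il6st and Il12rb1, in 2 of the others (10.0%) and in 3.92% of all windows. For the STAT motif the numbers were 5 (15.6%), 1 (5.00%) and 8.87%. A match is a run of letters and not a shown binding site. Ccl2, Ccl5, Ccl11, Il2rb, Il11ra1, Il17ra and Il17re were among the genes past 2-fold that had no window in the table.

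CC chemokine ligands included both of the genes that were at least 2-fold lower with BDE-47. Of the 15 compared, 8 were at least 2-fold higher with BDE-47 (53.3%, against 30.1% of all genes compared). Another 2 were lower (13.3%, against 3.72%) and 5 lay within 2-fold, with a median of 1.07. Median-of-ratios scaling over all loci left 6 higher and 3 lower, against 13.5% and 21% of all genes, with a median of 0.61. Ccl11, which attracts eosinophils, lies at chromosome 10:69069782-69074384 of build rn5 and was at 72.5 FPKM with BDE-47 and 6.06 FPKM with vehicle, a difference of 3.38. Its neighbour Ccl2 (chromosome 10:69047090-69048889), the main attractant of monocytes, was at 7.01 FPKM with BDE-47 and 0.101 FPKM with vehicle, a difference of 2.86. Ccl7, another monocyte attractant between them, was at 3.46 and 0.150 FPKM in the BDE-47 and vehicle groups. Thus the 3 genes at this end of the monocyte chemokine cluster were each above 3 FPKM with BDE-47, while in vehicle testis only Ccl11 exceeded 1 FPKM. Ccr2, the receptor of Ccl2 and Ccl7, was not analysed here.

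A second cluster on the same chromosome holds Ccl5, Ccl9 and Ccl6. Ccl6, a myeloid chemokine of rodents, was at 28.8 FPKM with BDE-47 and 1.35 FPKM with vehicle (chromosome 10:70428991-70478802), a difference of 3.67. Ccl5, which attracts T cells and monocytes, was at 7.11 FPKM with BDE-47 and 1.64 FPKM with vehicle. Ccl9, a relative of Ccl6, was at 1.85 FPKM with BDE-47 and 0.358 FPKM with vehicle. All 3 were past 2-fold, with Ccl9 at the smallest difference of any higher CC ligand compared (1.07), and it was not past 2-fold after any of the 4 scalings tried. Ccl3 and Ccl4, the macrophage inflammatory proteins at the end of the cluster, share 1 row of the table, at 3.68 FPKM with BDE-47 and 4.08 FPKM with vehicle, so the row gives no value for either alone. A second row that names Ccl3 alone was at 1.60 FPKM with BDE-47 and 0.314 FPKM with vehicle, a difference of 0.99 in the other direction.

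The ligands of Ccr7, which draw dendritic cells and lymphocytes into lymph vessels and nodes, differed from each other. Ccl21 was at 12.9 FPKM with BDE-47 and 0.283 FPKM with vehicle, a difference of 3.44. Another Ccl21 row with the same bounds (chromosome 5:62722613-62731005) was at 0.221 FPKM with BDE-47 and 0.536 FPKM with vehicle, and near-identical Ccl21 copies can share reads. Ccl19, the other Ccr7 ligand, lay within 2-fold at 6.23 FPKM with BDE-47 and 8.28 FPKM with vehicle, a difference of -0.36.

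Eotaxins, the ligands of the eosinophil receptor Ccr3, split as well. Ccl24 (chromosome 12:26145904-26149929) was at 6.92 FPKM with BDE-47 and 0.563 FPKM with vehicle, a difference of 2.34. Ccl26, the next gene on the chromosome (12:26154419-26159232), was at 71.5 FPKM with BDE-47 and 155 FPKM with vehicle, a difference of -1.11. Ccl26 was the most abundant of the 126 genes in vehicle testis, and it was lower with BDE-47 under all 4 scalings, with differences between -1.16 and -1.88. The eotaxin with the most RNA in vehicle testis was thus the one that was lower with BDE-47.

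Ccl27 and Ccl28, epithelial chemokines that share the receptor Ccr10, were not higher with BDE-47 in the rows used. Ccl27 was at 26.9 FPKM with BDE-47 and 58.1 FPKM with vehicle, a difference of -1.08, and its bounds (chromosome 5:62674088-62702136) are those of Il11ra1, and how their reads were divided is not known. A second Ccl27 row was lower too, at 5.74 FPKM with BDE-47 and 11.6 FPKM with vehicle. Ccl28 was at 27.9 FPKM in both groups. Ccl17, which attracts helper T cells through Ccr4, was at 2.99 FPKM with BDE-47 and 3.29 FPKM with vehicle.

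CXC, CX3C and XC ligands had the largest share of higher genes among the roles with at least 7 genes compared. Of the 10 compared, 8 were at least 2-fold higher with BDE-47 (80.0%, against 30.1% of all genes compared) and 2 lay within 2-fold. Under each of the 4 scalings 7 were higher and none lower, against 13.5% to 25.3% of all genes higher. The median was 1.79, and 1.13 and 1.35 under the 2 median-of-ratios scalings. Cxcl13, which guides B cells, had the largest difference of all 126 genes, 3.89, at 19.97 FPKM with BDE-47 and 0.418 FPKM with vehicle (chromosome 14:15193470-15198511). This rank depended on the scale. With 0.01 added in place of 1 FPKM, Il1rn (6.04) and Ccl2 (5.99) were ahead of Cxcl13 (5.55). Cxcl12, which holds stem cells and leukocytes in their niches, was at 63.6 FPKM with BDE-47 and 4.35 FPKM with vehicle (chromosome 4:215195688-215208536), a difference of 3.59. Cx3cl1, a chemokine tethered to the membrane of endothelial and other cells, was at 10.4 FPKM with BDE-47 and 0.895 FPKM with vehicle. These 3 were each at or above 10 FPKM with BDE-47 and under 5 FPKM with vehicle.

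Interferon-induced ligands of Cxcr3, which attract activated T cells, lie side by side on chromosome 14. Cxcl9 was at 14.3 FPKM with BDE-47 and 3.46 FPKM with vehicle, and Cxcl10 at 5.54 FPKM with BDE-47 and 1.03 FPKM with vehicle. Cxcl11, the third of this group, did not reach a mean of 1 FPKM, at 1.48 FPKM with BDE-47 and 0.344 FPKM with vehicle. All 3 were between 4.14 and 5.39 times as high with BDE-47 on the FPKM scale, although Cxcl10 and Cxcl11 share their bounds (chromosome 14:17059129-17141523) with each other and with Art3, a gene known from testis. Xcl1, an attractant of cross-presenting dendritic cells, was at 4.72 FPKM with BDE-47 and 0.633 FPKM with vehicle. Cxcl16, which exists as a membrane scavenger and as a soluble ligand, was at 17.8 FPKM with BDE-47 and 7.46 FPKM with vehicle. Its difference of 1.15 was not past 2-fold after any scaling, and its bounds are those of Zmynd15. Cxcl14 was at 3.46 FPKM with BDE-47 and 0.281 FPKM with vehicle, in a bundle that holds 11 other gene names.

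The neutrophil attractants Cxcl3 and Cxcl1 differed from each other, and the mucosal chemokine Cxcl17 lay within 2-fold. Cxcl3 was at 7.73 FPKM with BDE-47 and 7.31 FPKM with vehicle, a difference of 0.07 that turned negative under all 4 scalings. Cxcl1 was under the 1 FPKM mean at 1.38 FPKM with BDE-47 and 0.0825 FPKM with vehicle, a difference of 1.13. Cxcl17, within the bounds of Ceacam1, was at 0.853 FPKM with BDE-47 and 1.27 FPKM with vehicle.

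**Figure D2:**
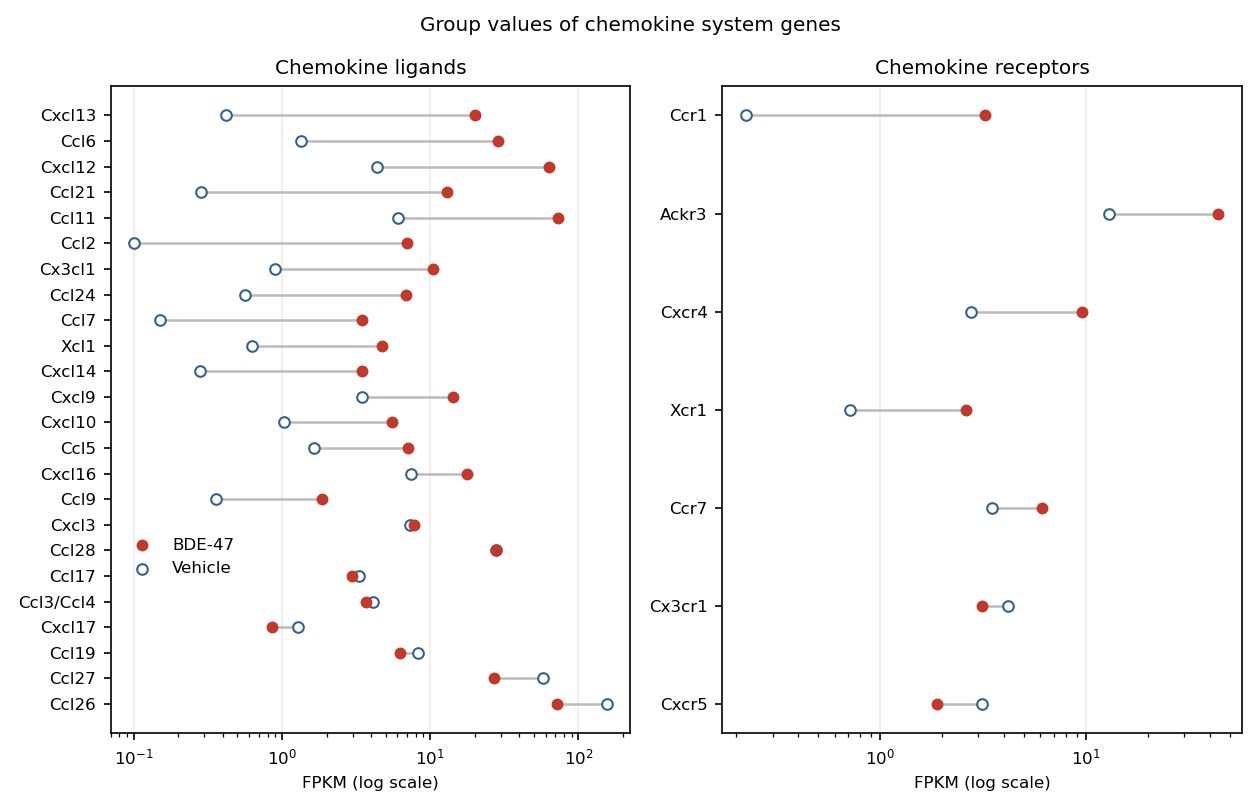
FPKM on a log scale for the chemokine ligands (left) and 7 of the receptors (right) with a mean of at least 1 FPKM, ordered by difference, with a filled red point for the BDE-47 group and an open blue point for the vehicle group. On the drawn scale the points of Ccl2 lie farthest apart (69.6 times), while Cxcl13 has the largest difference in log2(FPKM + 1) (19.97 and 0.418 FPKM). Ccl28 has 1 place for both groups, and Ccl26 and Ccl27 lie to the right with vehicle.

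Chemokine receptors had low levels, with a median over all 17 of 0.493 FPKM with BDE-47 and 0.243 FPKM with vehicle. Only 7 were compared, of which 4 were at least 2-fold higher with BDE-47 (57.1%, against 30.1% of all genes compared). None was lower, and the median was 1.07. Median-of-ratios scaling over all loci left 2 higher, against 13.5% of all genes, and none lower, with a median of 0.55. Ccr1, a receptor of monocytes and macrophages for Ccl5 and related ligands, was at 3.23 FPKM with BDE-47 and 0.222 FPKM with vehicle, a difference of 1.79. Cxcr4, the signalling receptor of Cxcl12, was at 9.58 FPKM with BDE-47 and 2.77 FPKM with vehicle, a difference of 1.49. Xcr1, the receptor of Xcl1, was at 2.60 FPKM with BDE-47 and 0.717 FPKM with vehicle, but a second Xcr1 row was at 1.64 FPKM in both groups, and the sum of its rows was not past 2-fold.

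The other 3 chemokine receptors compared lay within 2-fold. Ccr7 was at 6.15 FPKM with BDE-47 and 3.48 FPKM with vehicle. Cx3cr1, the fractalkine receptor of monocytes and macrophages, was at 3.14 FPKM with BDE-47 and 4.17 FPKM with vehicle, and its 2 further rows also had the smaller value with BDE-47. Cxcr5, the Cxcl13 receptor of B cells, was at 1.89 FPKM with BDE-47 and 3.14 FPKM with vehicle, within the bounds of Bcl9l. Ackr3, the atypical receptor that scavenges Cxcl12, was at 44.0 FPKM with BDE-47 and 12.9 FPKM with vehicle, a difference of 1.69. The differences of Ackr3 and Cxcr4 were not past 2-fold under median-of-ratios scaling over all loci. The second Ackr3 row with the same bounds (chromosome 9:97046850-97063695) was at 6.77 FPKM with BDE-47 and 9.71 FPKM with vehicle. Ackr2, which scavenges inflammatory CC chemokines, was at 0.105 FPKM with BDE-47 and 0.0164 FPKM with vehicle.

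Set beside each other, ligands and receptors gave 2 patterns. Cxcl12 was past 2-fold together with Cxcr4 and Ackr3, and Ccl5 was past 2-fold together with Ccr1, as was Xcl1 with Xcr1. Xcr1 was not past 2-fold after any of the 4 scalings (0.55 to 0.96), nor Ccl5 under median-of-ratios scaling over all loci (0.96). Cxcl13, Cx3cl1 and Ccl21 were past 2-fold while Cxcr5, Cx3cr1 and Ccr7 lay within it. Ccr3 stayed at 0.272 FPKM with BDE-47 and 0.262 FPKM with vehicle beside the different values of Ccl11, Ccl24 and Ccl26. Ccr10 was at 0.493 FPKM with BDE-47 and 0.243 FPKM with vehicle beside Ccl27 and Ccl28, and Ccr4 at 0.167 FPKM with BDE-47 and 0.392 FPKM with vehicle beside Ccl17. Cxcr3 reached 1.13 FPKM with BDE-47 and 0.0567 FPKM with vehicle, and Cxcr6, the Cxcl16 receptor, 0.406 FPKM with BDE-47 and 0.0518 FPKM with vehicle.

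Neighbouring genes did not all share a direction. The 5 genes from Ccl2 to Ccl1 (chromosome 10:69047090-69172142) all had larger values with BDE-47, Ccl12 at 1.87 FPKM against 0.0780 FPKM with vehicle and Ccl1, the last, at 0.420 FPKM against 0.0209 FPKM. In a receptor group on chromosome 8, Xcr1 and Ccr1 were at least 2-fold higher, and Ccr9, Cxcr6, Ccr3 and Ccr1l1 were under the 1 FPKM mean. In the interleukin-1 receptor group (chromosome 9:46526297-46901586), Il1r1 was at least 2-fold higher and its 4 neighbours were under the 1 FPKM mean. Around Ccl27 on chromosome 5, Ccl27 was lower, Il11ra1 and Ccl21 were higher and Ccl19 lay within 2-fold. Between Ccl17 and Ccl22 on chromosome 19, Cx3cl1 was past 2-fold and neither neighbour was.

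**Figure D3:**
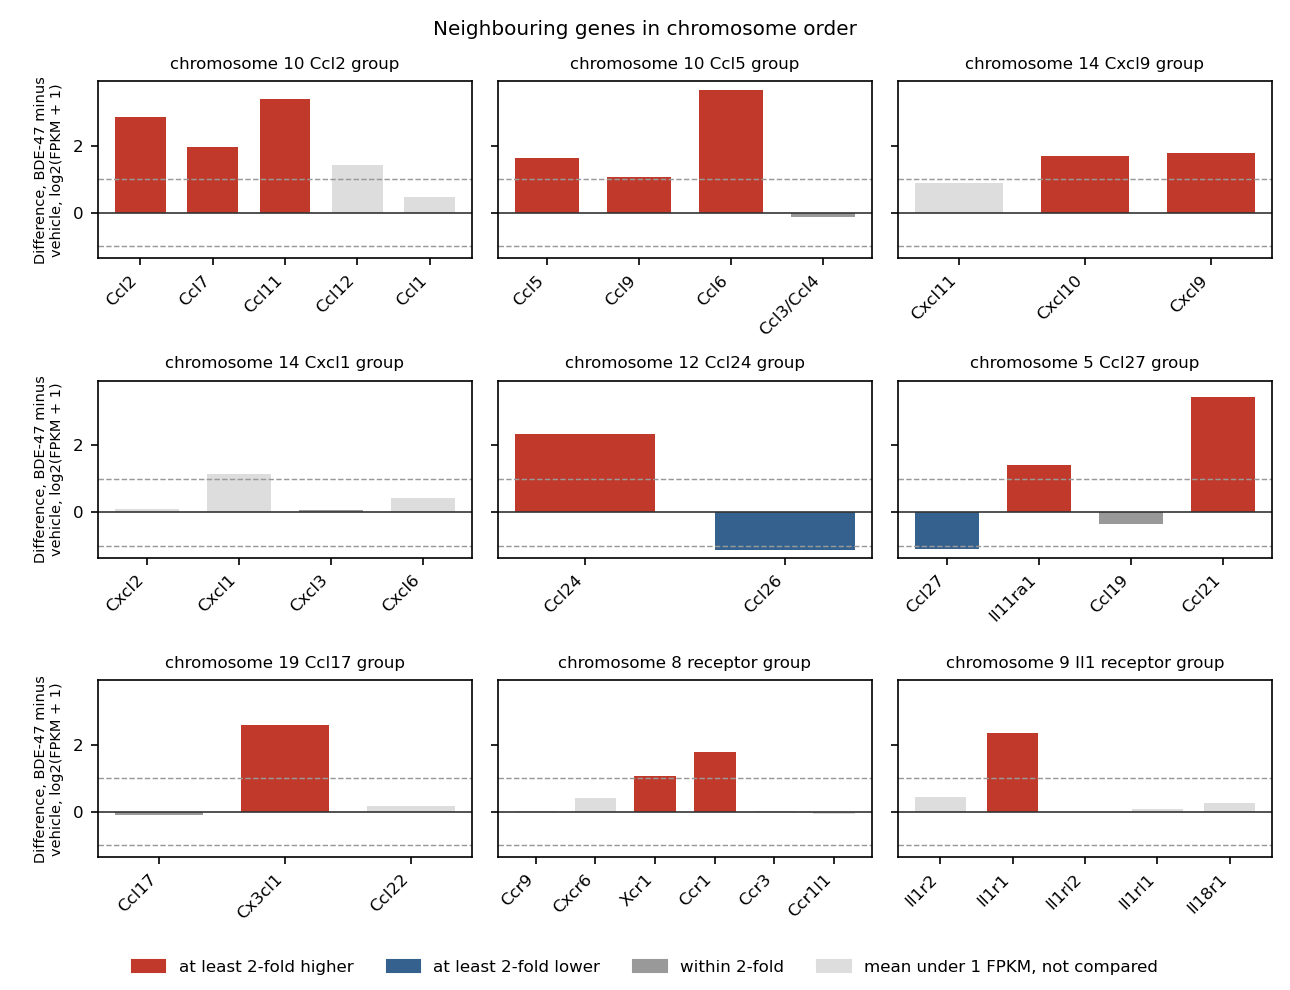
Bars give the difference, BDE-47 minus vehicle, in log2(FPKM + 1) for 9 groups of neighbouring genes in chromosome order, with dashed lines at 2-fold. The Ccl2 group lies above 0 throughout, while Ccl24 (2.34) and Ccl26 (-1.11) point in opposite directions.

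Interleukin genes mostly averaged under 1 FPKM in the testis. Of the 33, 10 were compared, and 5 of these were at least 2-fold higher with BDE-47 (50.0%, against 30.1% of all genes compared). None was lower, and the median was 0.94. Median-of-ratios scaling over all loci left 2 higher and 2 lower of the 10, with a median of 0.30. The shares of all genes under that scaling were 13.5% and 21%. Quantile normalization and scaling on the genes compared each gave 4 higher and 2 lower. Il33, an alarm signal held in the nuclei of endothelial, epithelial and stromal cells, was at 14.2 FPKM with BDE-47 and 0.418 FPKM with vehicle (chromosome 1:255363739-255398903), a difference of 3.42. Il15, which sustains natural killer cells and memory T cells, was at 4.72 FPKM with BDE-47 and 0.415 FPKM with vehicle. Il24, a cytokine of the interleukin-10 family, was at 8.75 FPKM with BDE-47 and 2.04 FPKM with vehicle, in the bounds of Fcmr. Il16, an attractant of Cd4+ cells, was at 2.62 FPKM with BDE-47 and 0.374 FPKM with vehicle. The differences of Il24 (0.995) and Il16 (0.87) were not past 2-fold under median-of-ratios scaling over all loci.

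Il18, an inflammasome-processed cytokine, had the highest level of the interleukins with BDE-47. It was at 24.8 FPKM with BDE-47 and 10.8 FPKM with vehicle, a difference of 1.13 that was not past 2-fold after any scaling. Il1a, known as a product of Sertoli cells in the rat, was at 2.87 FPKM with BDE-47 and 1.28 FPKM with vehicle, a difference of 0.76 on the log2(FPKM + 1) scale and 2.23 times on the FPKM scale. Il9, a mast cell and T cell growth factor, was at 4.63 FPKM with BDE-47 and 3.86 FPKM with vehicle, and Il2, the T cell growth factor, at 1.68 FPKM with BDE-47 and 1.08 FPKM with vehicle in a bundle with Adad1, a germ cell gene. The differences of Il9 (0.21) and Il2 (0.37) turned negative under median-of-ratios scaling over all loci, at -0.40 and -0.08, and under quantile normalization, at -0.27 and -0.03.

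A pair of interleukins had the smaller value in the BDE-47 group. Il11, a cytokine that signals through gp130, was at 9.78 FPKM with BDE-47 and 15.5 FPKM with vehicle, a difference of -0.61. Il34, the second ligand of the macrophage receptor Csf1r, was at 7.21 FPKM with BDE-47 and 12.9 FPKM with vehicle, a difference of -0.76. Both were past 2-fold lower under quantile normalization and under both median-of-ratios scalings. Csf1r itself, which is outside the set, was at 18.5 FPKM with BDE-47 and 1.33 FPKM with vehicle.

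The other 23 interleukins had means under 1 FPKM. Il1b, the macrophage cytokine of acute inflammation, was the most different of them at 1.18 FPKM with BDE-47 and 0.150 FPKM with vehicle. Il6 was at 0.0340 FPKM with BDE-47 and 0.0142 FPKM with vehicle, Il10 at 0.0693 FPKM with BDE-47 and 0.0172 FPKM with vehicle, and Il17a at 0.0177 FPKM with BDE-47 and 0.00879 FPKM with vehicle. Among the interleukins, 7 were listed at 0 with vehicle only, none with BDE-47 only, and 3 (Il22, Il36a and Il36g) in both groups. Those 7 reached at most 0.281 FPKM with BDE-47. Of all 17274 gene symbols, 393 were listed at 0 with vehicle only (2.28%), 176 with BDE-47 only and 1470 in both groups. A listed 0 can be a failed estimate, since the ribosomal protein gene Rps6 was also listed at 0 in both groups.

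Interleukin receptor chains were more often above the 1 FPKM mean than the interleukins themselves. Of the 34 chains, 22 were compared, and 12 of these were at least 2-fold higher with BDE-47 (54.5%, against 30.1% of all genes compared). None was lower, and the median was 1.27. Median-of-ratios scaling over all loci left 9 higher and 2 lower, against 13.5% and 21% of all genes, with a median of 0.70. The shared chains Il6st and Il10rb were among the higher ones. Il6st, which encodes gp130 of the interleukin-6 family, was at 13.0 FPKM with BDE-47 and 2.51 FPKM with vehicle. Its partner Il6r was at 6.77 FPKM with BDE-47 and 0.420 FPKM with vehicle, and Il11ra1 at 8.46 FPKM with BDE-47 and 2.57 FPKM with vehicle in the bundle with Ccl27. Il10rb, shared by the interleukin-10 family, was at 16.7 FPKM with BDE-47 and 2.38 FPKM with vehicle. Il12rb1, of the receptors for interleukin-12 and interleukin-23, was at 8.34 FPKM with BDE-47 and 0.940 FPKM with vehicle.

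Il13ra1, which pairs with Il4r in the receptor for interleukin-4 and interleukin-13, was at 10.6 FPKM with BDE-47 and 0.693 FPKM with vehicle, a difference of 2.77. Il4r was at 4.59 FPKM with BDE-47 and 1.16 FPKM with vehicle, a difference of 1.37 that was not past 2-fold under quantile normalization (0.94) or either median-of-ratios scaling (0.76 and 0.96). Il1r1, the signalling receptor of interleukin-1, was at 5.86 FPKM with BDE-47 and 0.358 FPKM with vehicle. Its accessory chain Il1rap lay within 2-fold at 8.82 FPKM with BDE-47 and 7.36 FPKM with vehicle, and this difference of 0.23 turned negative under quantile normalization and both median-of-ratios scalings. A second Il1rap row was at 4.79 FPKM with BDE-47 and 0.933 FPKM with vehicle, a difference of 1.58. Il1rl1, the receptor of interleukin-33, was at 0.227 FPKM with BDE-47 and 0.165 FPKM with vehicle, while its ligand gene was 34.1 times as high with BDE-47.

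The interleukin-17 receptor family included the receptor chain with the largest difference. Il17re, the specific chain for interleukin-17C, was at 19.6 FPKM with BDE-47 and 0.927 FPKM with vehicle (chromosome 4:208710868-208723933), a difference of 3.42. Il17rc, the next gene on the chromosome (4:208724713-208737147), was at 4.35 FPKM with BDE-47 and 0.344 FPKM with vehicle. Il17ra, the chain shared by the family, was at 8.17 FPKM with BDE-47 and 1.84 FPKM with vehicle. Il17rb, the interleukin-25 receptor chain, was at 2.99 FPKM with BDE-47 and 1.42 FPKM with vehicle, and the merged locus of Il17rd and Arhgef3 at 12.3 FPKM with BDE-47 and 6.73 FPKM with vehicle, both within 2-fold. Il17rb was past 2-fold with pseudocounts of 0.1 (1.02) and 0.01 (1.06). The ligand genes Il17a, Il17b, Il17c, Il17f and Il25 each stayed under 0.3 FPKM in both groups.

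Chains of the interleukin-2 family were low. Il2rb, used by interleukin-2 and interleukin-15, was at 2.099 FPKM with BDE-47 and 0.384 FPKM with vehicle, a difference of 1.16. Il2rg, the common gamma chain, was at 1.57 FPKM with BDE-47 and 0.467 FPKM with vehicle, a difference of 0.81 that was past 2-fold with smaller pseudocounts. Il2ra was at 0.871 FPKM with BDE-47 and 1.19 FPKM with vehicle. The chains with the smaller value in the BDE-47 group included Il3ra, the second most abundant of the 126 genes with vehicle. Il3ra, the specific chain of the interleukin-3 receptor and within the bounds of Asmtl, was at 58.5 FPKM with BDE-47 and 97.0 FPKM with vehicle, a difference of -0.72. Under median-of-ratios scaling over all loci Il3ra (-1.49) and Il20rb (-1.18) were past 2-fold lower. Il20rb, a chain for cytokines of the interleukin-20 group, was at 2.50 FPKM with BDE-47 and 4.53 FPKM with vehicle, the interleukin-27 receptor gene Il27ra at 0.807 FPKM with BDE-47 and 1.45 FPKM with vehicle, the partner chain Il20ra at 1.15 FPKM with BDE-47 and 1.23 FPKM with vehicle, and Il22ra1, a chain for interleukin-22, at 1.23 FPKM with BDE-47 and 1.27 FPKM with vehicle.

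Of the 6 natural inhibitors of interleukins, 2 were compared and both were at least 2-fold higher with BDE-47, as were 30.1% of all genes compared. Il18bp, which neutralizes interleukin-18, was at 17.8 FPKM with BDE-47 and 4.20 FPKM with vehicle, in the bounds of Numa1. Il1rn, the interleukin-1 receptor antagonist, was at 2.75 FPKM with BDE-47 and 0.0319 FPKM with vehicle, a difference of 1.86. Below the 1 FPKM mean, Il13ra2, the decoy receptor of interleukin-13, was at 1.48 FPKM with BDE-47 and 0.0981 FPKM with vehicle, and Il1r2, the decoy of interleukin-1, at 0.540 FPKM with BDE-47 and 0.143 FPKM with vehicle. Il22ra2, the soluble interleukin-22 binding protein, was at 0.865 FPKM with BDE-47 and 0.629 FPKM with vehicle, and Il36rn, the interleukin-36 receptor antagonist, at 0.00161 FPKM with BDE-47 and 0.00452 FPKM with vehicle.

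**Figure D4:**
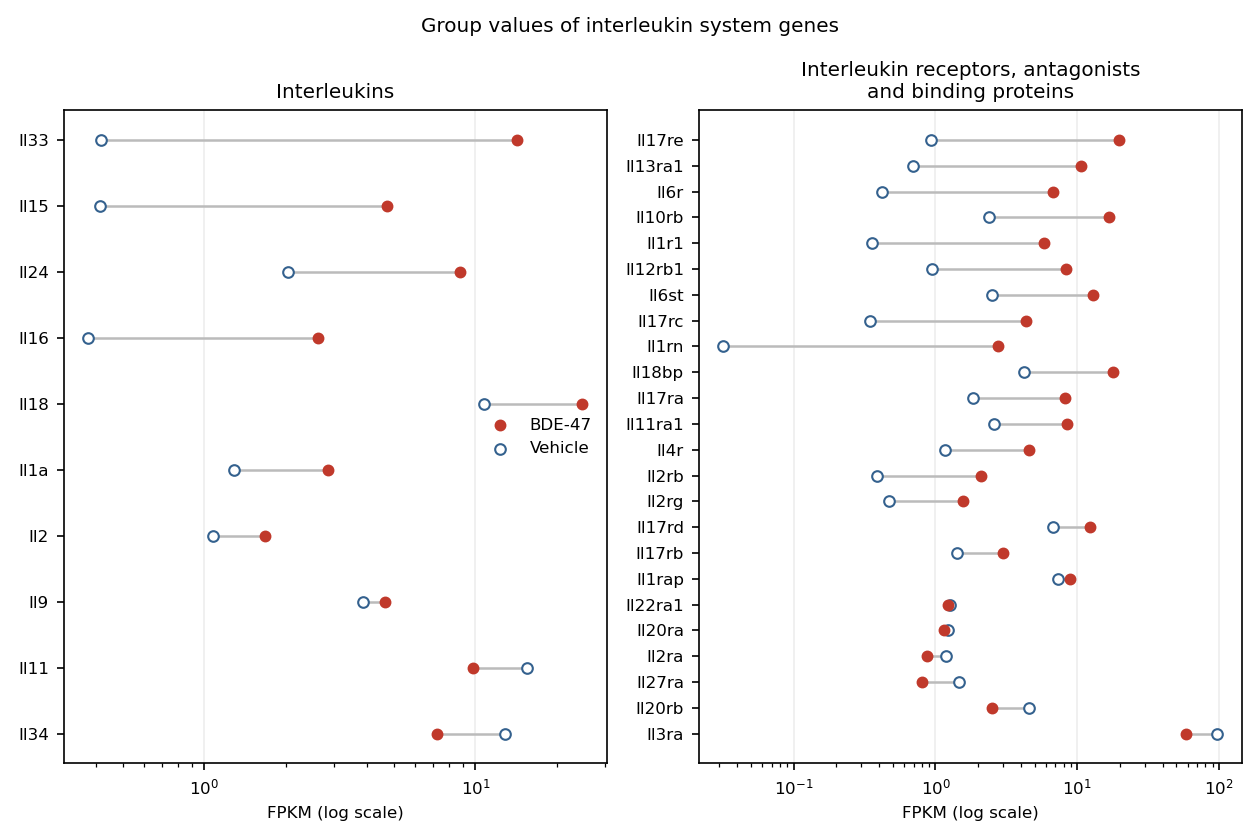
FPKM on a log scale for the interleukins (left) and their receptor chains, antagonists and binding proteins (right) with a mean of at least 1 FPKM, ordered by difference, with a filled red point for the BDE-47 group and an open blue point for the vehicle group. Il33 and Il17re head the panels, and Il34, Il11 and Il3ra, at the foot, have the larger value with vehicle.

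In all, 59 genes had means under 1 FPKM. Of the 55 of these above 0, 5 were at least 2-fold higher with BDE-47 (9.09%), against 3.19% of all genes above 0 and under this mean. They were Ccl12, Il13ra2, Cxcl1, Il10ra and Cxcr3, and none of the 5 was past 2-fold under median-of-ratios scaling over all loci. Il10ra, the specific chain of the interleukin-10 receptor, was at 1.39 FPKM with BDE-47 and 0.111 FPKM with vehicle, and the interleukin-21 receptor gene Il21r at 1.09 FPKM with BDE-47 and 0.0848 FPKM with vehicle. The 49 low genes outside the 10 with the largest differences ranged up to 0.908 FPKM with BDE-47 and 0.758 FPKM with vehicle, with differences between -0.25 and 0.42.

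The 4 lists of genes that carry chemokine and interleukin signals are read against the 30.1% of all genes compared that were higher by at least 2-fold. Of 13 cytokine receptor subunits outside the set, 8 were higher by that rule (61.5%) and none was lower (median 1.91). Without the row that Lepr shares with Leprot the count was 7 of 12 (median 1.65). Among the higher ones were Csf2rb, the common beta chain, at 6.41 FPKM with BDE-47 and 0.507 FPKM with vehicle, and the growth hormone receptor gene Ghr at 7.31 FPKM with BDE-47 and 0.732 FPKM with vehicle. Csf1r is counted both here and among the macrophage markers below. Of 22 JAK, STAT and SOCS genes, 15 rows were higher (68.2%) and none lower (median 1.69), and without the row that Jak3 shares with the Leydig cell hormone gene Insl3 the count was 14 of 21. Jak2, a kinase of many cytokine receptors, was at 21.9 FPKM with BDE-47 and 2.55 FPKM with vehicle. Of 15 genes of interleukin-1 signalling, 8 were higher (53.3%) and none lower (median 1.09), led by the inflammasome adaptor Pycard at 12.2 FPKM with BDE-47 and 0.979 FPKM with vehicle, Nfkb1, a subunit of NF-kB, at 8.11 FPKM with BDE-47 and 0.555 FPKM with vehicle, and the kinase Irak1, in a row it shares with a microRNA gene, at 23.9 FPKM with BDE-47 and 3.39 FPKM with vehicle. Of 19 genes of chemokine receptor signalling and processing, 15 were higher (78.9%) and none lower (median 1.71). Rarres2, which encodes the attractant chemerin, was at 179.8 FPKM with BDE-47 and 8.94 FPKM with vehicle, Cd74, the surface receptor of the cytokine Mif and chaperone of class II molecules, at 232 FPKM with BDE-47 and 17.0 FPKM with vehicle, and Rac2, a motility GTPase of leukocytes, at 8.94 FPKM with BDE-47 and 0.493 FPKM with vehicle. Median-of-ratios scaling over all loci left 7, 12, 4 and 11 genes higher in these lists, against 13.5% of all genes, and 1 lower in each, and the medians stayed positive under all 4 scalings.

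Marker genes of cells that make or answer these signals are given beside these results, since in whole tissue fewer cells of a type and less RNA per cell cannot be told apart. Of 11 macrophage markers compared, 9 were at least 2-fold higher with BDE-47 (81.8%, against 30.1% of all genes) and none lower. The median difference was 3.07. Lyz2 was at 184 FPKM with BDE-47 and 7.31 FPKM with vehicle, and C1qc at 69.6 FPKM with BDE-47 and 3.66 FPKM with vehicle. Only Aif1 had the smaller value with BDE-47, at 413 FPKM with BDE-47 and 505 FPKM with vehicle. Summed over the 12 in the table the markers held 859 FPKM with BDE-47 and 541 FPKM with vehicle. Aif1 made up most of the vehicle sum, and no marker was listed at 0. Leydig cell markers were higher in 6 of 6 cases, 1 of them the row of Insl3 and Jak3 (sums of 719 FPKM with BDE-47 and 73.1 FPKM with vehicle without it), and Sertoli cell markers in 5 of 6 (1806 and 321 FPKM with BDE-47 and vehicle). Endothelial markers were higher in 2 of 5 cases, peritubular markers in 1 of 4 and T cell markers in 2 of 5, shares near the 30.1% of all genes. Tek, of the endothelial list, shares a row with the acrosomal gene Eqtn, and without it the list summed to 15.3 FPKM with BDE-47 and 4.11 FPKM with vehicle. The peritubular list summed to 70.0 FPKM with BDE-47 and 42.0 FPKM with vehicle, and the T cell list to 17.8 FPKM with BDE-47 and 12.5 FPKM with vehicle. The mast cell markers Kit and Cma1 and the neutrophil markers S100a8 and S100a9 were the only members of their lists compared, all higher. The mast cell list summed to 18.2 FPKM with BDE-47 and 2.36 FPKM with vehicle. Kit alone made up most of both sums, at 12.0 FPKM with BDE-47 and 2.08 FPKM with vehicle. The neutrophil list summed to 7.20 FPKM with BDE-47 and 0.646 FPKM with vehicle. Of the B cell markers, Cd79b averaged under 1 FPKM and Ms4a1 was at 256 FPKM with BDE-47 and 182 FPKM with vehicle. Elane, of the neutrophil list, was listed at 0 in both groups. Germ cell markers included 4 lower of 8 (50.0%, against 3.72% of all genes compared) and 1 higher. The 4 lower were Prm1, Prm2, Tnp1 and Tnp2. The list summed to 28497 FPKM with BDE-47 and 72132 FPKM with vehicle, mostly from Prm1, Tnp1 and Tnp2. Acr also had the smaller value with BDE-47, and 3 genes had the larger one. These were Dazl (67.2 and 30.1 FPKM with BDE-47 and vehicle), Sycp3 (699 and 357 FPKM) and Ddx4 (208 and 154 FPKM). Under the scalings the median of the germ cell list was 0.00 with quantile normalization and negative with the others, the difference of Ms4a1 turned negative with both median-of-ratios scalings, and the T cell list had no gene past 2-fold higher with any of them. Median-of-ratios scaling over all loci left 2 of 6 Sertoli cell markers higher (median 0.81), and 8 macrophage markers higher with 1 lower. The part of these cell types in the chemokine and interleukin differences was not tested. The extraction text of the labels names liver. Of the liver markers, Cyp3a2 was at 12.5 FPKM with BDE-47 and 8.94 FPKM with vehicle, Ttr at 1.67 FPKM with BDE-47 and 0.142 FPKM with vehicle, Apoa1 at 1.17 FPKM with BDE-47 and 1.21 FPKM with vehicle, and Alb at 0.633 FPKM with BDE-47 and 0.920 FPKM with vehicle. Prm1, of sperm, was at 16271 FPKM with BDE-47 and 43238 FPKM with vehicle.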

How the data were processed

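Poly(A) RNA of 10 testis libraries was sequenced, 5 per group. The submitters' processing notes name TopHat2, Cuffdiff 2.1.1 and the rat build rn5. The sources used here do not give the annotation, the strand setting or how libraries were combined. The authors deposited log2 FPKM values, 1 per group and locus, with -10 as the floor, read here as listed at 0, and a log2 ratio that equals the difference of both columns within 0.01. Of 94827 loci, rows with a gene name were split into symbols, and 1 row was kept per symbol, that with the highest mean. Members and lists were chosen with earlier results of these data known. Every member with a mean of at least 1 FPKM is named, with the 10 largest differences below it. Some genes that these rules or lists include are not reported here by name, though the counts include them. Other low genes, such as receptors of a ligand described, were named after their values were seen. In pathway lists up to 3 genes past 2-fold are named. With group values only, no test was run. How often the 2-fold size rule errs in these data was not tested, because the spread between animals is unknown. Promoters were matched by symbol, and the alternatives were other pseudocounts, filters, scalings and rows. Python 3.11.15, pandas 2.3.3 and numpy 2.4.6 were used.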

Additional observations from a re-analysis of the deposited data

How the results depend on the processing

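The 40 higher and 2 lower genes and the median of 1.40 stayed within 1.5 times of these values under pseudocounts of 0.1 and 0.01, the deposited ratio, summed rows, merged loci left out and equal sums without the most abundant loci. Without a filter on low values the median was 0.33 over 122 genes, and with a mean of at least 5 FPKM 20 of 30 genes were higher. Median-of-ratios scaling over all loci gave 7 lower genes and a median of 0.76, quantile normalization 5 lower genes, and median-of-ratios scaling over the genes compared, chosen after seeing the data, 6. The genes added to Ccl26 and Ccl27 in these counts were among Ccl19, Il3ra, Il11, Il20rb and Il34. Leaving out loci whose bounds another gene shares, also chosen after seeing the data, left 1 lower gene, Ccl26, and 34 higher of 52. Shares of all genes were not computed for this set or for the other filters on low values. The 30.1% of all genes is therefore no counterpart to 34 of 52 or 20 of 30. Centring scalings move the split toward balance by construction. Of the 45 named genes past 2-fold higher, 28, 34, 40 and 34 remained past it under median-of-ratios, quantile, equal-sum and gene-based median-of-ratios scaling, and all 45 kept a positive difference. No paired analysis was possible because the table holds group values only, and for the same reason no library could be left out. Depth and error are unknown, so small differences and values near 0 cannot be ranked.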

Other observations

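The table holds 22 further rows for 16 of the 126 symbols, with the same bounds as the row used. What sets these rows apart is not given in the table, and they enter the counts only where the rows of a symbol were summed. The second row of Il9 was at 1.72 FPKM with BDE-47 and 2.07 FPKM with vehicle, that of Il34 at 0.415 FPKM with BDE-47 and 0.747 FPKM with vehicle, and that of Cxcl3 at 3.10 FPKM with BDE-47 and 2.64 FPKM with vehicle. For Ccr7 the second row was at 0.747 FPKM with BDE-47 and 1.09 FPKM with vehicle, opposite to the row used. One of the 3 further rows of Ccl28 was at 1.27 FPKM with BDE-47 and 0.306 FPKM with vehicle, while the row used had equal values.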
